A study of Homo sapiens with 6 samples.

Results

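Condensin and cohesin are ring-shaped protein complexes built on pairs of SMC ATPases, and their genes were followed here in MDA-MB-231 cells, a long-established line of human triple-negative breast cancer, with and without the kinase inhibitor DCC-2036. The set was drawn up by name as 10 subunit genes, 7 of condensin and 3 of cohesin, and each gene was read from its brightest transcript record, judged by the mean of the 6 arrays. Records named by the platform's annotation or by RefSeq accession covered 9 of the 10, with 6 condensin genes (SMC2, NCAPD2, NCAPD3, NCAPG, NCAPG2 and NCAPH) and all 3 cohesin genes (SMC1A, SMC3 and RAD21), among 17185 named genes. SMC4, the SMC partner of SMC2, had no named record and was not analysed here. Each of the 9 genes rested on a single record.

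The 6 one-colour arrays came from 3 control cultures (0 μM drug) and 3 cultures given DCC-2036 at 3.75 μM, all grown in DMEM and sampled at 48 h, in experiments the labels call independent. DCC-2036, also called rebastinib, inhibits ABL1 and several receptor kinases, and only 1 dose and 1 time in 1 cell line were measured. The arrays had close median intensities, between 265 and 274. The markers VIM, CD44, CAV1, ANXA1 and MSN, chosen to check the line, had control means between percentiles 81.3 and 98.6 of all records. Of 7 luminal markers, ESR1, PGR, FOXA1 and CDH1 had control means below an intensity of 66.3, the upper bound of the dimmest 25% of records, while GATA3, ERBB3 and EPCAM did not. The group means of the leukocyte markers PTPRC and CD3E lay below that bound in both groups, and those of the fibroblast markers were 60.9 ± 24.4 and 220.1 ± 237 for DCN and 96.4 ± 61.3 and 109 ± 65.9 for PDGFRA in control and treated arrays (SD, n = 3). The treated DCN values were 106, 61.9 and 492 on arrays 1, 2 and 3. Other records of DCN had log2 changes with the drug of 0.005, 0.29 and -0.33.

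Condensin folds and stiffens chromosomes in mitosis by extruding DNA loops. Condensin I and condensin II share the ATPase pair SMC2 and SMC4 and differ in a kleisin (NCAPH or NCAPH2), which bridges the ATPase heads, and in a pair of HEAT-repeat subunits (NCAPD2 and NCAPG, or NCAPD3 and NCAPG2). Condensin II stays in the nucleus throughout the cell cycle, whereas condensin I reaches chromosomes after the nuclear envelope breaks down. Cohesin, made of SMC1A, SMC3 and the kleisin RAD21 with a STAG subunit, holds sister chromatids together from S phase to anaphase and also forms loops in interphase.

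Subunit mRNA was lower with DCC-2036 in both complexes, though not for every subunit. Of the 9 genes, 6 fell, 0 rose and 3 did not pass in the limma test over all genes (adjusted p under 0.05), where 16% of all genes were lower and 13.1% higher. In the same 6 genes every treated array lay below every control array, as in 24.4% of all genes. The genes that fell were SMC2, NCAPD2, NCAPD3 and NCAPG of condensin and SMC3 and RAD21 of cohesin. NCAPH, NCAPG2 and SMC1A did not pass. The median log2 change of the 9 genes was -1.21, beside 0.02 over all 17185 genes. Log2 changes are taken on log2(intensity + 1), treated minus control, with the standard error of limma, and 3 arrays per group limit their precision. In bulk RNA, fewer cells in which a gene is active and less RNA per cell cannot be told apart.

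**Figure D1:**
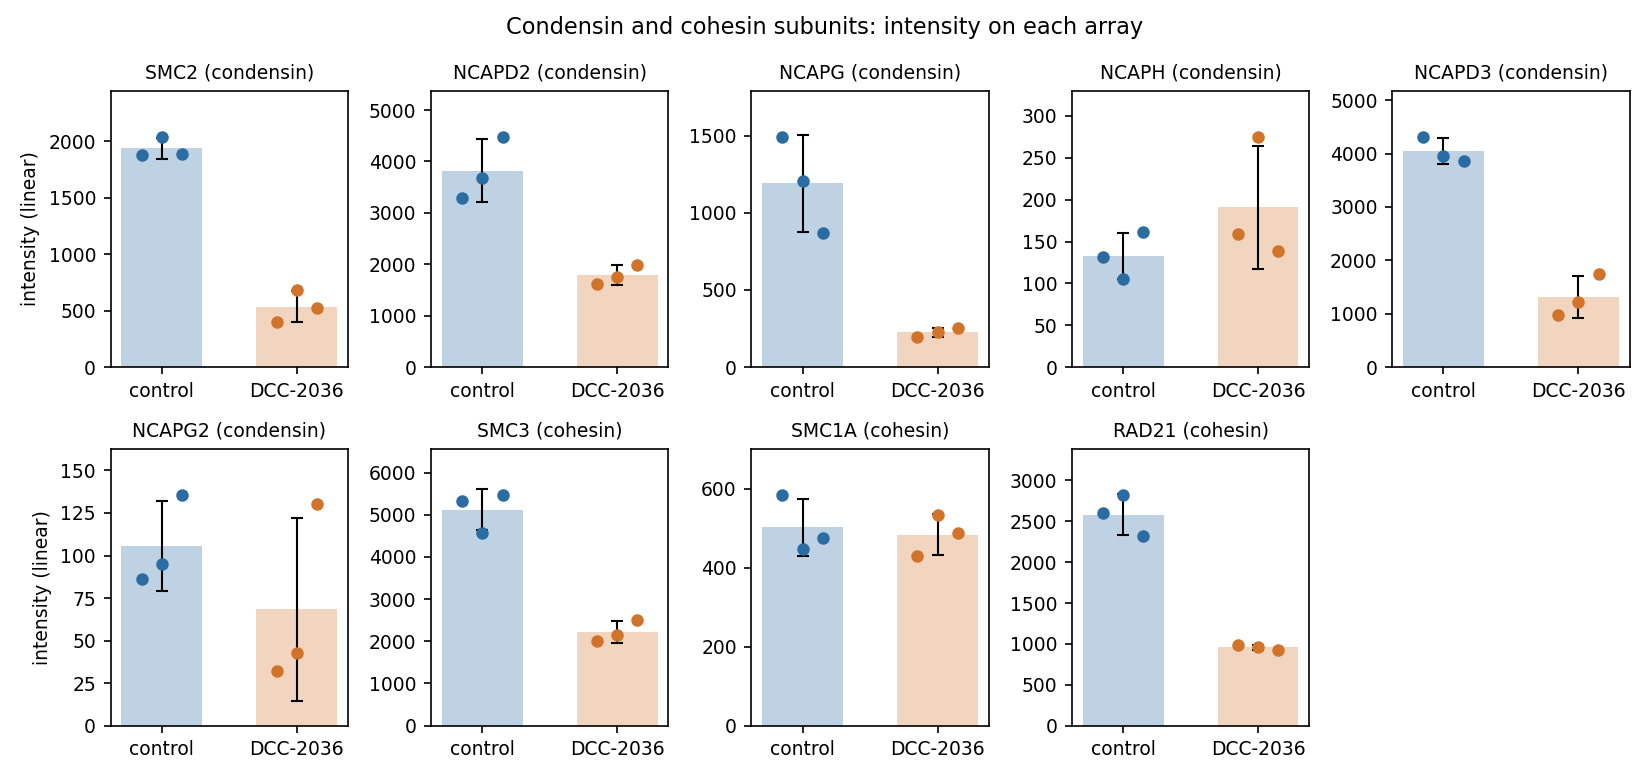
Linear intensity of each subunit gene in the control and DCC-2036 arrays, with points for single arrays, bars from 0 for the group mean and error bars for the SD (n = 3). In 6 of the 9 genes every treated array lay below every control array, and in NCAPH, NCAPG2 and SMC1A the groups overlapped.

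Among the ATPases, SMC2 is the subunit common to both condensins. It had intensities of 1885, 2043 and 1887 on control arrays 1, 2 and 3 and of 404, 679.95 and 526 on DCC-2036 arrays 1, 2 and 3. The groups were far apart, and SMC2 was 3.69-fold lower with the drug (log2 change -1.88 ± 0.21, limma adjusted p = 0.00236). SMC3, whose acetylation locks cohesin on DNA, gave 5321, 4571 and 5466 in the control arrays and 2001, 2146 and 2512 with DCC-2036. It fell 2.31-fold (-1.21 ± 0.16, limma adjusted p = 0.00375). SMC1A, which pairs with SMC3 in the cohesin ring, gave 584, 448 and 475 in the control arrays and 429, 535 and 489 with DCC-2036. The groups overlapped, and the log2 change of SMC1A was -0.05 with a 95% interval from -0.46 to 0.36 (limma adjusted p = 0.858), an interval that leaves out a fall as large as that of SMC3.

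The HEAT-repeat subunits help condensin hold DNA. NCAPG, of condensin I, had the largest change of the 9 genes, with 1493, 1207 and 869 in the control arrays and 195, 225 and 256 with DCC-2036. That was a 5.17-fold fall (-2.37 ± 0.24, limma adjusted p = 0.00168), and 0.78% of all genes had a log2 change as low or lower. NCAPD2, the other HEAT subunit of condensin I, gave 3286, 3683 and 4483 in the control arrays and 1609.8, 1749 and 1993 with DCC-2036. The groups were apart, and NCAPD2 fell 2.13-fold (-1.09 ± 0.18, limma adjusted p = 0.00681). NCAPD3, its counterpart in condensin II, gave 4318, 3952 and 3869.65 in the control arrays and 978, 1211 and 1738 with DCC-2036. NCAPD3 fell 3.18-fold (-1.67 ± 0.23, limma adjusted p = 0.00423), and the groups did not overlap.

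NCAPG2, the other HEAT subunit of condensin II, was dim and uneven. It gave 86.0, 95.1 and 135.5 in the control arrays and 32.3, 42.95 and 130.16 with DCC-2036, so that the first and second treated arrays lay below all controls and the third among them. Its log2 change was -0.86 ± 0.52, with a 95% interval from -2.11 to 0.39, and it did not pass (limma adjusted p = 0.266). Without DCC-2036 replicate 3 it was -1.45 and passed (limma adjusted p = 0.0207). With any other single array left out it did not pass, and without DCC-2036 replicate 1 it was -0.46 (limma adjusted p = 0.54).

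Of the kleisins, the one of cohesin fell and those of condensin did not pass. RAD21, the kleisin that separase cuts at anaphase, gave 2598, 2819.5 and 2316 in the control arrays and 990.3, 959 and 925 with DCC-2036. The treated arrays were close to each other and all below the controls, and RAD21 fell 2.68-fold (-1.42 ± 0.14, limma adjusted p = 0.00169). NCAPH, the kleisin of condensin I, gave 132, 105 and 161 in the control arrays and 159, 275 and 138 with DCC-2036. Its groups overlapped, with 1 treated array above all others, and its log2 change was 0.48 with a 95% interval from -0.26 to 1.21 (limma adjusted p = 0.291). NCAPH2, the kleisin of condensin II, is not one of the 10 genes and is given for comparison. It gave 2837, 2894 and 3058 in the control arrays and 2513, 2653 and 2863 with the drug, for a log2 change of -0.13 with a 95% interval from -0.46 to 0.19 (limma adjusted p = 0.509). A second record of NCAPH2 changed by 0.03 and did not pass either. The intervals of both condensin kleisins leave out a fall as large as that of RAD21. That of NCAPH reflects only the spread between arrays, for 1 record at percentile 40.3 of all records and without a detection call.

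**Figure D2:**
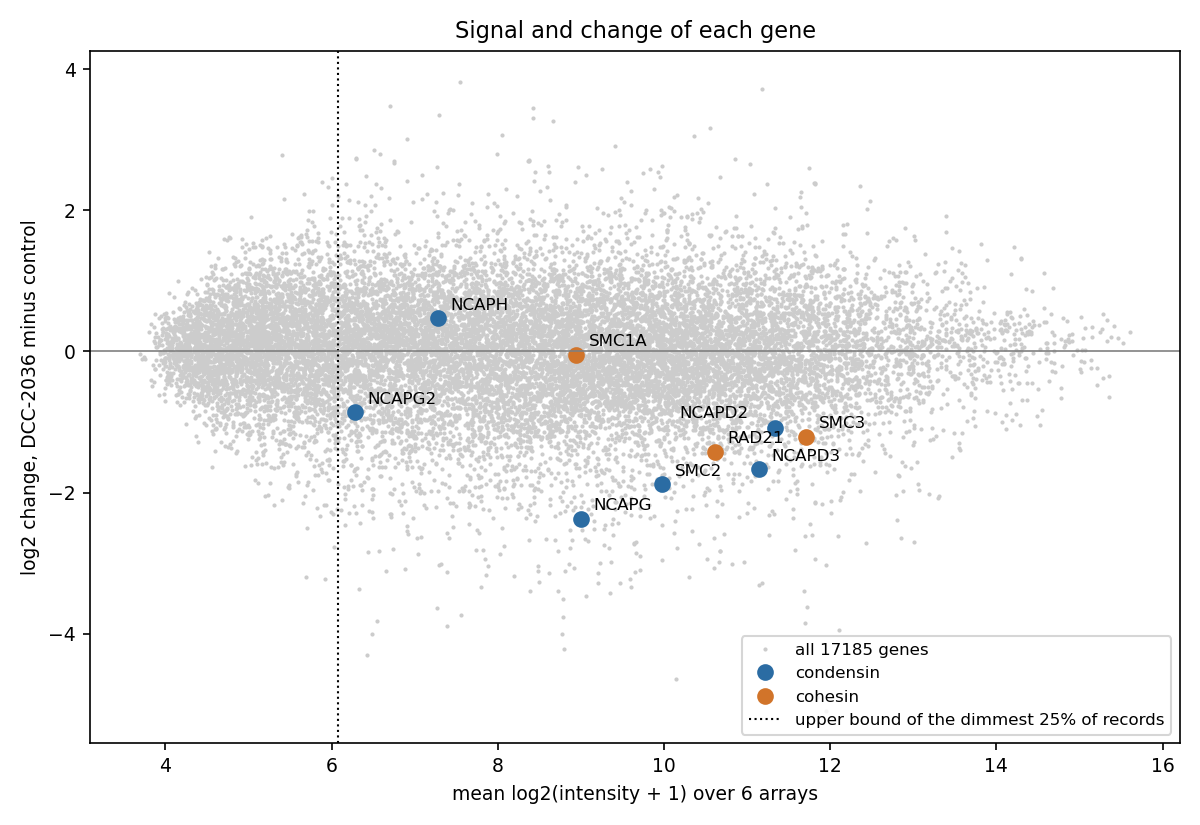
Log2 change with DCC-2036 against the mean log2(intensity + 1) over 6 arrays, with all 17185 named genes as grey points and the condensin and cohesin genes labelled. The 6 genes that fell lay in the middle and bright range, NCAPG2 lay next to the dotted bound of the dimmest 25% of records, SMC1A lay near a change of 0 and NCAPH above 0.

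Signal strength differed among the genes. The mean of NCAPG2 over the arrays lay at percentile 27.5 of all records and that of NCAPH at 40.3, both below the median record, where the table gives no detection call. SMC1A lay at percentile 61.2 and NCAPG, which passed, at 62.0, with the treated arrays counted in. On the control arrays alone SMC1A lay at percentile 61.6 and NCAPG at 76. The part of dim signal in the values of NCAPG2 and NCAPH was not tested. All 6 falls kept their call in each of the 16 other settings tried, among them leaving out any single array. Settings that took other records per gene could not change the values of these genes, which have a single record each.

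Set side by side, both complexes were lower on average. With each gene centred on its own mean log2 value, the mean over the 6 condensin genes was 0.61, 0.55 and 0.68 in control arrays 1, 2 and 3 and -0.96, -0.53 and -0.35 in DCC-2036 arrays 1, 2 and 3, a change of -1.23. The mean over the 3 cohesin genes was 0.55, 0.39 and 0.41 in the control arrays and -0.53, -0.41 and -0.39 with DCC-2036, a change of -0.89. The treated arrays differed more from each other in condensin (SD 0.32) than in cohesin (SD 0.08). In condensin the treated SD was above the control SD of 0.07. The condensin mean includes the dim NCAPG2, at 32.3, 42.95 and 130.16 on DCC-2036 arrays 1, 2 and 3. The part of NCAPG2 in this spread was not tested. Condensin minus cohesin gave 0.06, 0.17 and 0.28 in the control arrays and -0.43, -0.12 and 0.05 with DCC-2036. The treated array nearest to the controls lay just under the lowest control, and the log2 difference was -0.34. It was -0.21 without DCC-2036 replicate 1 and -0.86 without the records below the median, where NCAPG2 and NCAPH drop out and only 4 condensin genes remain. No p is given for these means, since the genes were chosen by name with results of these arrays known.

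Ratios between subunits of a complex were taken within each array. Of 15 subunit pairs, 3 in cohesin and 6 in each condensin with NCAPH2 counted, the within-array log2 ratio did not overlap between the groups in 9 (2 in cohesin, 5 in condensin I and 2 in condensin II). Over all pairs of the 17185 genes, 43.2% of such ratios did not overlap, and nothing particular to these complexes is read from the count. The ratios were not tested one by one, and an exact permutation test could not go below a two-sided p of 0.1 with 3 arrays on each side. The ratio of NCAPG to NCAPH had the largest shift of the 15, by a log2 of -2.85, and that of SMC2 to NCAPH shifted by -2.36. In cohesin the ratio of SMC1A to SMC3 shifted by 1.16 and that of SMC1A to RAD21 by 1.37, while that of SMC3 to RAD21 shifted by 0.22 and overlapped. In condensin II the ratio of NCAPD3 to NCAPH2 shifted by -1.54 without overlap, and that of SMC2 to NCAPD3 by -0.22 with overlap.

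Promoter sequences are shown for 3 genes that fell and carry a given word and for SMC1A, whose groups overlapped and which does not carry it. They were picked by both traits. Among the windows not printed are NCAPD3, which fell without the word, and NCAPG2, which carries it and did not pass. The word is TTTGAA, the cell cycle genes homology region (CHR), to which repressor and activator complexes bind in promoters of many genes of late cell cycle. RefSeq windows of GRCh38.p14, from 250 bases before to 50 after an annotated start, were at hand for 8 of the 9 genes, with none for RAD21, and were searched on both strands. The 250 bases before the start are printed, 5′ to 3′ on the gene's strand, with every TTTGAA (or TTCAAA on the other strand) and every CCAAT (or ATTGG) in capitals. The windows are NCAPG (chr4:17810729-17810978, plus strand), NCAPD2 (chr12:6493852-6494101, plus strand), SMC3 (chr10:110567445-110567694, plus strand) and SMC1A (chrX:53422729-53422978, minus strand).
NCAPG: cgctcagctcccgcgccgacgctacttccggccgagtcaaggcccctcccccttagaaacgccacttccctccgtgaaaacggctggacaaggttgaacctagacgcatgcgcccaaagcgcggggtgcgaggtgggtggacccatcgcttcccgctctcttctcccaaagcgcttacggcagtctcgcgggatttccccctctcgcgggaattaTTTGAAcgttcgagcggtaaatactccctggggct
NCAPD2: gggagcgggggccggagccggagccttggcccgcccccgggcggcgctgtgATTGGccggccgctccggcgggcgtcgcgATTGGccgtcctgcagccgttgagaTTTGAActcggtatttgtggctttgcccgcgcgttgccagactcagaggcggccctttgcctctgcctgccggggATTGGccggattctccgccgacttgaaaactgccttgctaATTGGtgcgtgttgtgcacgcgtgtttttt
SMC3: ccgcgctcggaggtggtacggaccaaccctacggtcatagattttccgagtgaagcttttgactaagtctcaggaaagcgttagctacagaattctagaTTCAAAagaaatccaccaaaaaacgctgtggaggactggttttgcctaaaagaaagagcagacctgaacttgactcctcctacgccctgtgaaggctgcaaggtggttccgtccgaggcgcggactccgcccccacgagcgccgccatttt
SMC1A: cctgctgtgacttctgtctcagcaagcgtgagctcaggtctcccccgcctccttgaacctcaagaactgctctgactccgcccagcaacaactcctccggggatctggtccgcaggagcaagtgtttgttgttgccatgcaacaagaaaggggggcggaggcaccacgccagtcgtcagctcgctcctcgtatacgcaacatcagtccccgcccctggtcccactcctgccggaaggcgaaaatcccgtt

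The CHR word lay in 5 of the 8 windows, and 15.4% of 27305 RefSeq windows of that length held it, or 11.9% of the 13780 windows of genes tested here. In NCAPG it ran from base -35 to -30 before the start, in NCAPD2 from -145 to -140 and in SMC3, on the other strand, from -151 to -146. In SMC2 it spanned the start, on the other strand, and in NCAPG2 it lay after the start, from 36 to 41. Of the 5 genes with the word, 4 fell (SMC2, NCAPD2, NCAPG and SMC3) and NCAPG2 did not pass. Of the 3 without it, NCAPD3 fell, and NCAPH and SMC1A did not. How many of all genes with the word fell was not counted, and a link between the word and the falls was not tested. The CCAAT box, CCAAT on either strand, lay in 2 windows, 4 times in NCAPD2 and once in NCAPH, and in 35.7% of all windows. The E2F words TTTCCCGC, TTTCGCGC, TTTGCCGC and TTTGGCGC lay in 0 of the 8 windows and in 3.33% of all windows. None of these words overlapped another in the windows, a match is not a bound site, and a missing word says only that these letters are not in this window.

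Accessory genes were read from lists of named genes. Of 39 such genes 36 were measured, and 19 fell, 0 rose and 17 did not pass, with a median log2 change of -0.69. Over all genes 16% were lower and 13.1% higher, with a median of 0.02. RAD21L1, PDS5A and SMCHD1 had no named record and were not analysed here.

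**Figure D3:**
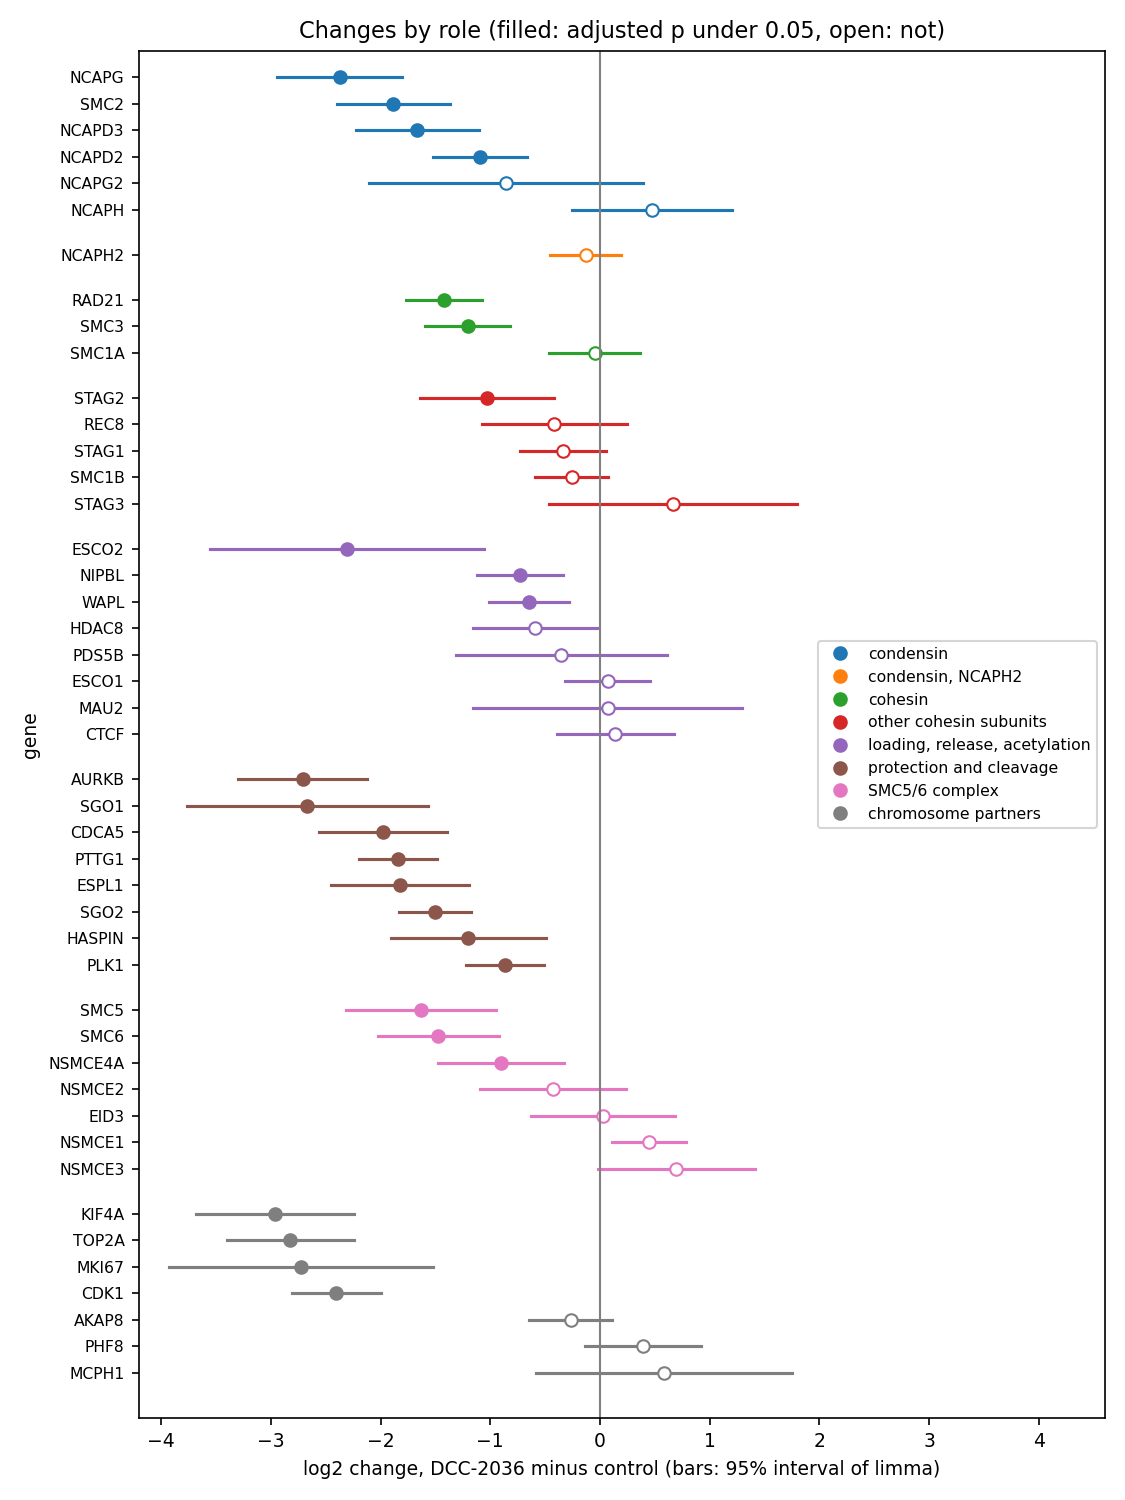
Log2 change with DCC-2036 and its 95% interval for the subunit genes and for accessory genes by role, with filled points for an adjusted p under 0.05 and open points otherwise. All 8 genes listed under cohesion protection and cleavage lay below 0 with filled points. In the other accessory lists with more than 1 gene, open points lie on both sides of 0.

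Of 5 other cohesin subunits measured, 1 fell, 0 rose and 4 did not pass, with a median log2 change of -0.34. That 1 gene of 5 is close to the 16% lower over all genes. STAG2, the STAG subunit most used in somatic cells, gave 520.3, 458 and 315 in the control arrays and 215, 164 and 248 with DCC-2036 (-1.03 ± 0.25, limma adjusted p = 0.0264). Its call was lost, leaving 0 genes in this list, when control array 1 (-0.88) or 2 (-0.97) or treated array 1 (-1.06) or 2 (-0.87) was left out. STAG1, its paralog, gave 597, 558 and 685 in the control arrays and 453, 554 and 448 with DCC-2036. The STAG1 groups did not overlap, by a narrow margin, and it did not pass (-0.34, 95% interval -0.73 to 0.05, limma adjusted p = 0.171). The meiotic subunits STAG3 (0.66), SMC1B (-0.26) and REC8 (-0.42) did not pass, and STAG3 and SMC1B had group means below 66.3.

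Of 8 measured genes of cohesin loading, release and acetylation, 3 fell, 0 rose and 5 did not pass, beside 16% lower over all genes. Their median log2 change was -0.47. ESCO2, the acetyltransferase that acts on SMC3 in S phase, gave 142, 143 and 145 in the control arrays and 21.1, 15.3 and 68.3 with DCC-2036 (-2.30 ± 0.52, limma adjusted p = 0.0200). Its treated mean of 34.9 lay below 66.3, and its change was -1.79 with 16 added before the log. ESCO2 was not tested without the dimmest 25% of records, where 2 genes of the list fell. NIPBL, the loader of cohesin, fell 1.66-fold (-0.73 ± 0.16, limma adjusted p = 0.0197). Its second record changed by -0.49 and did not pass. WAPL, which releases cohesin from DNA, fell 1.57-fold (-0.65 ± 0.15, limma adjusted p = 0.0219). Each of these calls was lost in some of the settings with 1 array left out. Over all genes the count lower was also smaller there, between 1725 and 2307 beside 2746 with all 6 arrays. ESCO2 lost its call when control array 1 (-2.31), 2 (-2.30) or 3 (-2.29) or treated array 1 (-2.10) or 2 (-1.88) was left out. NIPBL lost it when control array 1 (-0.63) or treated array 3 (-0.65) was left out, and WAPL for control array 1 (-0.56) or 3 (-0.64) or treated array 2 (-0.64) or 3 (-0.63). The count of 3 became 0 when control array 1 was left out and 1 for control array 3 or treated array 2 or 3. ESCO1, the paralog of ESCO2, had a log2 change of 0.07 with a 95% interval from -0.32 to 0.45 and did not pass. Neither did MAU2, PDS5B, CTCF or HDAC8, the last with a log2 change of -0.59 (limma adjusted p = 0.109).

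All 8 genes listed under cohesion protection and cleavage fell, beside 16% lower over all genes, with a median log2 change of -1.83. The list was drawn up with earlier results of these data known. CDCA5, sororin, which keeps WAPL from releasing cohesin, gave 14328, 13033 and 17683 in the control arrays and 2764, 4217 and 4627 with DCC-2036 (-1.98 ± 0.24, limma adjusted p = 0.00297). SGO1, shugoshin, which shields cohesin at centromeres, gave 1064, 1044 and 1021 in the control arrays and 81.9, 171 and 311 in the treated ones (-2.67 ± 0.46, limma adjusted p = 0.00803). The other 3 records of SGO1 changed by -3.19, -3.19 and -3.22. SGO2, the related shugoshin, fell 2.84-fold. On the cleaving side, ESPL1, separase, gave 1419, 1382 and 1586 in the control arrays and 281, 543 and 459 with DCC-2036 (-1.82 ± 0.26, limma adjusted p = 0.00462). PTTG1, securin, which holds separase inactive, fell 3.59-fold, from 5917 ± 648 in the control arrays to 1643 ± 53.4 (SD, n = 3). AURKB, a kinase of the centromere that acts on cohesin and condensin, fell 6.55-fold (-2.71 ± 0.24), and PLK1, a mitotic kinase, 1.82-fold. HASPIN, the histone kinase of mitotic centromeres (-1.20), lost its call when control array 1 (-0.93) or 3 (-1.17) or treated array 1 (-1.15), 2 (-1.19) or 3 (-1.26) was left out, so that 7 of 8 passed.

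The SMC5/6 complex, a related SMC complex that acts in DNA repair, had falls in its ATPases. Of 7 genes, 3 fell, 0 rose and 4 did not pass, beside 16% lower over all genes, with a median log2 change of -0.43. SMC6 gave 582, 539 and 475 in the control arrays and 148, 254 and 184 with DCC-2036 (-1.47 ± 0.23, limma adjusted p = 0.00585). Its partner SMC5 gave 97.6, 87.3 and 105 in the control arrays and 20.6, 30.7 and 44.6 with DCC-2036 (-1.63 ± 0.28, limma adjusted p = 0.00855), in the dimmest 25% of records when treated. The mean of SMC5 over all arrays lay at percentile 21.4. It was not tested without the dimmest 25% of records, where 2 genes of the list fell. NSMCE4A, the kleisin of the complex, fell 1.87-fold (-0.90 ± 0.24) but lost the call when control array 1 (-0.80) or 2 (-0.81) or treated array 1 (-0.95), 2 (-1.02) or 3 (-0.75) was left out. Of the others, NSMCE1, a RING-type subunit, gave 1076, 1154 and 962 in the control arrays and 1411, 1462 and 1471 with DCC-2036. These NSMCE1 groups did not overlap, and it missed the threshold (0.45 ± 0.14, limma adjusted p = 0.0555). NSMCE2 (-0.42), NSMCE3 (0.69) and EID3 (0.03) did not pass.

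Of 7 partners of condensin on mitotic chromosomes, 4 fell, 0 rose and 3 did not pass, beside 16% lower over all genes. Their median log2 change was -2.40. TOP2A, the topoisomerase that untangles sister DNA, gave 4879, 3515 and 4829.55 in the control arrays and 513, 556 and 817 with DCC-2036 (-2.82 ± 0.24, limma adjusted p = 0.00114). KIF4A, a chromosome-bound kinesin that works with condensin I, gave 3409, 2759 and 2376 in the control arrays and 479.98, 237 and 411 with DCC-2036 (-2.96 ± 0.30, limma adjusted p = 0.00173). CDK1, the kinase that starts mitosis and phosphorylates condensin, fell 5.29-fold (-2.40 ± 0.17), and MKI67, the Ki-67 coat protein of mitotic chromosomes and a marker of cycling cells, 6.61-fold (-2.72 ± 0.50). TOP2A, CDK1 and MKI67, markers of cycling cells, moved in the same direction as the 6 subunits that fell, and the part of the share of cycling cells in those falls was not tested. MCPH1 (0.58), which restrains condensin II before mitosis, AKAP8 (-0.27) and PHF8 (0.39) did not pass.

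**Figure D4:**
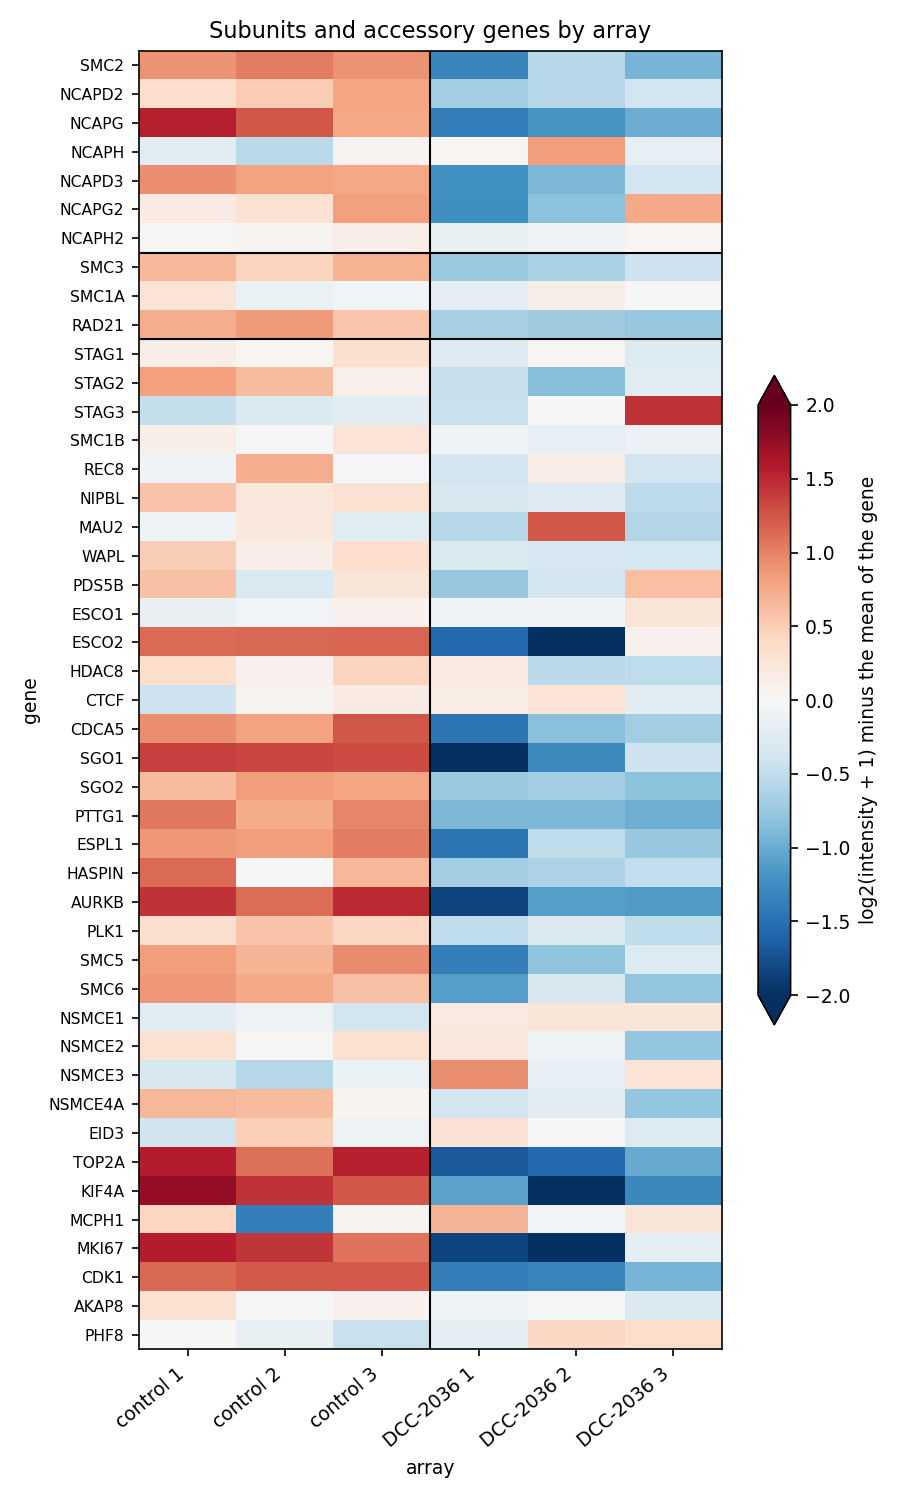
Log2(intensity + 1) minus the mean of the gene for subunits (condensin with NCAPH2, then cohesin, between the black lines) and accessory genes on the 6 arrays, with colours held at -2 and 2. Most rows are red in the control arrays and blue with DCC-2036, while NCAPH, NCAPH2 and SMC1A stay pale or mixed and DCC-2036 array 3 is red for NCAPG2.

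Genes with the most similar pattern were ranked by the root mean square difference of centred log2 values over the 6 arrays. Nearest to the mean condensin profile were GBP1, an interferon-induced GTPase (difference 0.05, log2 change -1.19), ACADM, a mitochondrial fatty acid dehydrogenase (0.06, -1.16), KLF11, a Krüppel-like factor (0.06, -1.30), PECR, a peroxisomal reductase (0.06, -1.17), and CTTNBP2NL, a cortactin-binding protein relative (0.07, -1.35). Nearest to the mean cohesin profile were MAPK6, the atypical kinase ERK3 (0.04, -0.86), NLE1, a ribosome assembly factor (0.04, -0.89), CCDC90B, a mitochondrial coiled-coil protein (0.05, -0.88), TGIF1, a homeobox repressor (0.05, -0.86), and KIF2A, a microtubule-depolymerizing kinesin (0.05, -0.82). These are descriptions over 6 arrays in 2 groups, where any gene with a like fall and small spread comes close.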

How the data were processed

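MDA-MB-231 cultures were profiled on one-colour NimbleGen arrays from total RNA, made into cDNA with oligo dT primers and labelled with Cy3, per the labels' protocols. The deposited intensity values, on a linear scale from 8.03 to 65365 for 45033 records, were made by the authors with RMA, per the submitters' processing notes, with no version. The sources used here give no background correction, design build, slide or scan date, and no batch could be tested. The platform's annotation named 18188 records (symbols refreshed through Entrez IDs) and 678 more were matched by RefSeq accession (GRCh38.p14), which gave 17185 genes, and 26167 had no name. Each gene was read from its brightest record.

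Log2(intensity + 1) of the groups was tested in R 4.3.3 by limma 3.58.1, using lmFit followed by eBayes without covariates (two-sided, threshold 0.05 after Benjamini-Hochberg adjustment over 17185 genes). Folds are log2 changes taken back to the linear scale. The procedure was tested on simulated data. The members, the accessory lists, the tests and the alternatives were chosen with earlier results of these data known. Named genes are the members, NCAPH2, up to 6 genes with the smallest p past the threshold per accessory list and the 5 nearest genes per mean profile, and others named to spell out counts were chosen after their values were seen. Some markers on the lists that check the cell type are not reported here. Python 3.11.15, pandas 2.3.3 and matplotlib 3.10.9 made names and figures.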

Additional observations from a re-analysis of the deposited data

How the results depend on the processing

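The counts of 4 condensin and 2 cohesin genes lower held under quantile normalization again, median centring, 16 added before the log, filters on dim records, eBayes with trend and robust settings, array weights, other records per gene, the replicate block and each array left out, except that condensin had 5 without DCC-2036 replicate 3. Since each of the 9 genes has a single record, settings with other records per gene reused the same values and could hardly differ. Filters on dim records also kept the values of the genes they retained, and all these settings are counted below. Of 142 values of the 9 genes under all 16 alternatives, 139 kept their direction and side of the threshold, 1 gained the call (NCAPG2) and 2 reversed, both SMC1A without control replicate 1 or DCC-2036 replicate 1 (range -0.13 to 0.065 with 1 array left out). Over all genes, 1380 were higher and 1797 lower with the replicate block, 1422 to 1885 higher and 1725 to 2307 lower with 1 array left out. The cause was not tested. The difference of condensin minus cohesin was -0.86 without the records below the median and ran from -0.45 to -0.21 with 1 array left out. Genes that did not pass reversed in sign: NCAPH2 was 0.027 with its second record, and with 1 array left out MAU2 ran from -0.54 to 0.38, ESCO1 from -0.0355 to 0.13, CTCF from -0.033 to 0.28 and EID3 from -0.17 to 0.27. The labels call the experiments independent and do not say that the numbers pair the cultures, so the main test used no pairing. Deviations of same-numbered control and treated arrays had correlations across genes of -0.08, 0.04 and -0.09 for replicates 1, 2 and 3. Those of differently numbered arrays ran from -0.09 to 0.15, and with 3 arrays per group such values cannot settle pairing. With the replicate block STAG2, NIPBL, WAPL and HASPIN did not pass while all 6 falls among the 9 genes did. NSMCE1 passed in 5 of the alternatives, among them quantile normalization again (0.50, limma adjusted p = 0.0365). HDAC8 passed as lower without the records below the median, with trend and robust settings and without DCC-2036 replicate 1. NSMCE3 passed as higher without the records below the median and with trend and robust settings. With no detection values in the table, how far NCAPG2 and NCAPH lay above background could not be measured.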
